A study of Mus musculus with 96 samples.

Results

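The 10 genes described here encode parts of the extracellular matrix and proteins that remodel it: Fn1, Col4a1, Col4a2, Sparc, Ecm1, Mmp2, Plaur, Timp1, Timp2 and Timp3. They were selected on their read counts in these 4 groups, whose levels were already known, and were taken by symbol from 19836 genes in the table. All 10 were found, and all 10 had at least 30 reads over the 96 cells. Their pooled levels and ratios between groups are therefore a description and carry no test. The cells came from C57BL/6 mouse embryos, with 1 cell sorted to a well and amplified by SMART-Seq, a method that reads whole transcripts. The first group was 48 pre-haematopoietic stem cells (pre-HSCs) from the E11.5 aorta-gonad-mesonephros region (AGM), the site around the dorsal aorta where stem cells emerge. The second was 16 pre-HSCs from the E11.5 yolk sac. Both had the phenotype Ter119-CD11b-CD144+c-kit+EPCR+. The liver groups were haematopoietic stem cells (HSCs) from fetal liver. The E12.5 liver gave 16 cells with the phenotype Ter119-Sca-1+c-kit+EPCR+, and the E14.5 liver gave 16 with the phenotype Ter119-Sca-1+c-kit+CD48-CD150+. The labels give no genetic change or treatment, and no animal or litter for any cell. Each group was treated as 1 sample without replicates, and tissue, age and gate cannot be told apart between AGM and liver.

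The basement membrane is the thin sheet of matrix under endothelium, and it is built on networks of laminin and type IV collagen. Fibronectin surrounds developing vessels and binds integrins on the cell surface. Matrix metalloproteinases cut these proteins, tissue inhibitors of metalloproteinases (TIMPs) block the proteases, and the urokinase receptor holds a plasminogen activator at the membrane. Haematopoietic stem cells arise from endothelium of the aorta, so genes of the vessel wall and its matrix can be found in cells on that path.

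Pooled reads of a group ranged from 19053123 in E12.5 liver to 60280645 in AGM, and single cells had between 250235 and 1926882 reads. Levels are given as CPM, the reads of a gene scaled to a common library total, pooled over the cells of a group with an exact 95% Poisson interval, and as the CPM of single cells. Reads were amplified by PCR and carry no molecular identifiers, so intervals and floors cover counting error only. Haematopoietic markers (10 genes, among them Ptprc, Runx1 and Spi1) had reads in every cell, with summed levels of at least 1130 CPM in each yolk sac and liver cell. In AGM the summed haematopoietic level ranged from 0.872 to 3749 CPM. AGM cells 3 and 36 stood apart: their haematopoietic sums were 0.872 and 107 CPM, the lowest of the 48, while their endothelial sums were 14944 and 7297 CPM against a group median of 1248. Both had reads of all 10 members. The AGM level of each member without them follows the order by length below, and ratios to AGM are given without them where a call or direction changed. Of the 12 endothelial markers, 11 had reads in E12.5 liver, from Cldn5 in 1 to Esam in 13 of 16 cells, and Kdr had none. In E14.5 liver 10 had reads, from Cdh5 and Kdr in 1 cell each to Emcn in 12 of 16, and Cldn5 and Sox17 had none. Of the other cells, E12.5 liver cell 8 had the fewest genes detected, 1011, and the highest macrophage marker sum, 24897 CPM. It also had the highest megakaryocyte and erythroid marker sums of its group, 1515 and 10066.5 CPM.

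The matrix and remodelling genes formed a broadly shared set in AGM cells, a patchy one in yolk sac cells and a sparse one in liver HSCs. An AGM cell had reads of a median of 7 of the 10 genes (lowest 2, highest 10), and a yolk sac cell had a median of 5 (lowest 1, highest 10). In E12.5 liver the median was 2 (lowest 0, highest 6), and in E14.5 liver it was also 2 (lowest 0, highest 4). At least 5 of the genes were found together in 43 of the 48 cells from AGM and in 8 of the 16 from yolk sac. In liver this held for 4 of 16 cells at E12.5 and for 0 of 16 at E14.5, where a count of 0 allows a share of up to 18.75% at a floor of 3 cells in 16 (exact Clopper-Pearson upper limit 20.6%). None of the 10 was read in E12.5 liver cells 7 and 12, nor in E14.5 liver cells 10, 13 and 14. The summed level of the 10 genes had a median over cells of 1366 CPM for AGM, 579 for yolk sac, 267 for E12.5 liver and 119 for that at E14.5. Over all genes, the median number detected in a cell was 5522.5 for AGM, 5349.5 for yolk sac, 4036 for E12.5 liver and 4839 for E14.5 liver.

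The number of members found in a cell went with the number of genes detected in it. Across cells, Spearman's rho between these counts was 0.77 for AGM, 0.73 for yolk sac, 0.65 for the liver at E12.5 and 0.21 at E14.5, as a description in which both counts share the cell's library. Yolk sac cells 1, 2 and 3, which each had over 9000 genes detected, held 10, 9 and 10 of the members, and the other yolk sac cells had a median of 4. The 4 AGM cells with over 9000 genes held between 8 and 10, and the other AGM cells had a median of 6.5. After each cell was thinned to 690000 reads, the medians were 6, 4.5, 2.5 and 2 in the same group order, with 5 AGM, 0 yolk sac, 2 E12.5 and 2 E14.5 cells left out as too shallow. The part of gene detection in the group difference was not tested.

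**Figure D1:**
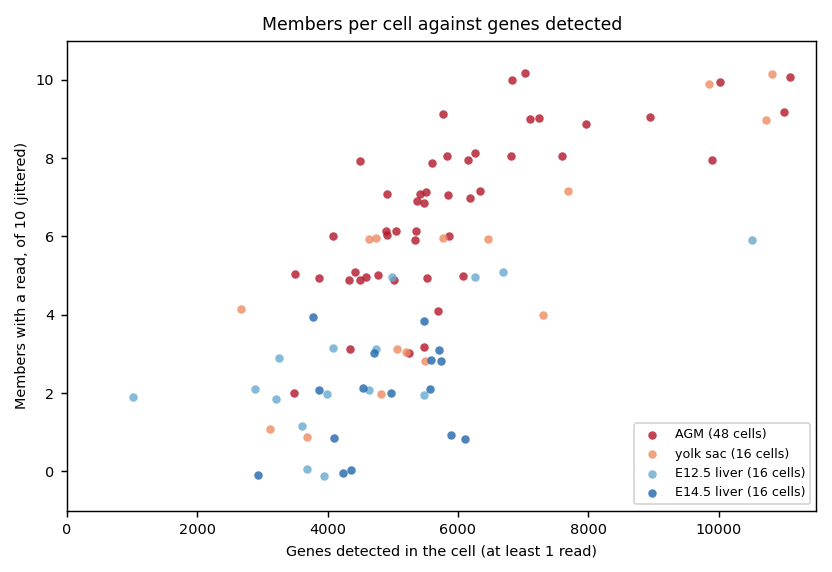
Number of the 10 matrix and remodelling genes with a read (vertical axis, jittered) against the number of genes detected in the same cell (horizontal axis), 1 point per cell, coloured by group. AGM cells lie between 2 and 10 members and E14.5 liver cells between 0 and 4, and within AGM, yolk sac and E12.5 liver the points climb to the right.

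Fn1 encodes fibronectin, the integrin-binding glycoprotein of early vessel matrix, and it was the structural gene found in the most AGM cells. In AGM 45 of 48 cells had a read, with a lowest cell of 0, a median of 296 and a highest of 1065 CPM. In yolk sac 9 of 16 cells had a read, with a median of 12.9 and a highest of 405 CPM. In E12.5 liver 7 of 16 cells had a read and the highest was 200.5 CPM, and in E14.5 liver 4 of 16 had a read and the highest was 216.2 CPM, both with a median of 0. Single cells overlapped between all groups, since every group had cells at 0. Pooled Fn1 was 359 CPM (355 to 364) for AGM and 104 (99.9 to 108) for yolk sac. Liver had 44.9 CPM (41.9 to 47.99) at E12.5, and at E14.5 it had 28.5 CPM (26.3 to 30.9). The level in yolk sac was 3.45-fold lower than in AGM (counting interval 3.31 to 3.60), and that in E12.5 liver was 8.01-fold lower than in AGM (7.48 to 8.59). In E14.5 liver Fn1 was 1.57-fold lower than at E12.5 (1.42 to 1.75), an order that rests on few cells: cell 2 gave 44.3% of the E12.5 reads and cell 9 gave 60.8% of the E14.5 reads, and without them the pooled levels were 27.7 and 12.1 CPM. The log2 ratio of -0.64 turned to 0.04 without E12.5 cell 2 alone and to 0.18 without the deepest cell of each group, and it was -1.80 without E14.5 cell 9 alone. Fn1 lies on chromosome 1 (71585520 to 71653200, minus strand, mm10) and an antisense transcript, Apol7d, overlaps 292 bases of its exons. Reads from those bases cannot be assigned to 1 of the pair, because the strand setting of the counting is not given in the sources used here.

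Col4a1 and Col4a2 encode the alpha1 and alpha2 chains of type IV collagen, which assemble into 1 trimer in every basement membrane. The genes stand head to head on chromosome 8 and their RefSeq starts overlap, so that Col4a1 runs on the minus strand from 11312826 and Col4a2 on the plus strand from 11312805. The stretch that both annotated transcripts share is shown because reads from it cannot be assigned to a strand. It lies at chr8:11312805-11312826 (GRCm38.p6, the build also called mm10), 22 bases on the plus strand, and the capitals mark the first transcribed base of Col4a2 on the left and of Col4a1 on the right.
Col4a1/Col4a2: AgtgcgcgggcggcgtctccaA

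Gm15419 also shares 43 exon bases with Col4a2, while Gm15418 and Gm44716 lie within the span of Col4a1 and share 0 bases of its exons. In AGM both chains were common and at like pooled levels, 100.5 CPM (97.9 to 103) for Col4a1 and 101 (98.4 to 104) for Col4a2. Col4a1 was read in 39 of 48 AGM cells (median 51.8, highest 769.6 CPM) and Col4a2 in 37 (median 36.8, highest 623 CPM). Both chains were read in 30 cells, only Col4a1 in 9, only Col4a2 in 7, and neither in 2. Their levels varied almost separately from cell to cell: Spearman's rho across the 48 AGM cells was 0.20, and 0.09 without AGM cells 3 and 36.

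In yolk sac and E14.5 liver the 2 chains parted in pooled level, in yolk sac through 1 cell, while in E12.5 liver they lay closer. In yolk sac Col4a1 was 26.4 CPM (24.3 to 28.6) and was read in 9 of 16 cells (median 1.92, highest 80.7 CPM), which was 3.80-fold lower than in AGM (3.50 to 4.15). Yolk sac Col4a2 was 96.5 CPM (92.4 to 101) and was read in 8 of 16 cells, with a median of 0.291 and a highest of 1447 CPM. The highest was cell 8, which gave 65.8% of the reads, and without it Col4a2 was 34.5 CPM and its log2 ratio to AGM moved from -0.06 to -1.52. Without AGM cells 3 and 36 that ratio turned to 0.18. In E12.5 liver Col4a1 was 37.5 CPM (34.8 to 40.3; 8 of 16 cells, median 1.59, highest 161.6) and Col4a2 was 45.8 CPM (42.8 to 48.9; 7 of 16 cells, median 0, highest 254). These levels were 2.68-fold (2.48 to 2.90) and 2.21-fold (2.05 to 2.37) lower than in AGM. In E14.5 liver Col4a1 was 33.6 CPM (31.1 to 36.2; 8 of 16 cells, median 0.510, highest 337), within 1.12-fold of E12.5 (1.00 to 1.24). E14.5 Col4a2 was 9.18 CPM (7.92 to 10.6; 5 of 16 cells, median 0, highest 98.2), 4.98-fold lower than at E12.5 (4.25 to 5.87). Cell 13 gave 51.8% of the E12.5 Col4a2 reads and cell 16 gave 53.4% of those at E14.5, and the log2 ratio of -2.20 ran from -3.09 to -1.31 when single cells were left out.

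Sparc encodes osteonectin, a collagen-binding matricellular protein of basement membranes, and its E11.5 level was shared by many cells while its liver level came from 1 cell at each age. In AGM 39 of 48 cells had a read (lowest 0, median 132, highest 3848 CPM). AGM cells 3 and 36 had 3848 and 2386 CPM and gave 38.2% of the group's reads, and the next highest cell had 631 CPM. Without them the pooled level was 182.4 CPM (178.9 to 185.9), against 285 CPM with them. In yolk sac 11 of 16 cells had a read (median 56.5, highest 355 CPM) and the pooled level was 123 CPM (118 to 128). Yolk sac was thus 2.32-fold lower than AGM (2.23 to 2.42), and on the log2 scale of CPM + 1 the ratio was -1.21 with all cells and -0.57 without AGM cells 3 and 36. In both liver groups 2 of 16 cells had a read. At E12.5 these were 16.7 CPM in cell 5 and 1.16 CPM, and at E14.5 they were 246 CPM in cell 15 and 1.02 CPM. The pooled levels of 1.15 CPM (0.724 to 1.75) and 17.6 CPM (15.8 to 19.5) differed through cell 15: without it E14.5 Sparc was 0.0523 CPM, below the E12.5 level. Sparc lies on chromosome 11 (55394500 to 55423183, minus strand), with no overlapping gene in the annotation.

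Ecm1 encodes extracellular matrix protein 1, a secreted glycoprotein that binds several matrix proteins, and it was the only member of the 10 whose pooled level was higher in E12.5 liver than in AGM. In AGM 25 of 48 cells had a read (lowest 0, median 12.1, highest 1346 CPM in cell 3). The pooled AGM level was 70.8 CPM (68.7 to 73.0), and cell 3 alone gave 36.2% of the reads, leaving 46.1 CPM without it. In yolk sac 7 of 16 cells had a read (median 0, highest 149.3 CPM) and the pooled level was 24.6 CPM (22.6 to 26.8), of which cell 1 gave 52.3%, leaving 12.9 CPM. In E12.5 liver 8 of 16 cells had a read, at 5.05, 42.99, 83.9, 210.2, 268, 329, 396 and 897 CPM. Those 8 cells gave a pooled 134 CPM (129 to 139.2), 1.89-fold above AGM (1.80 to 1.99), and the largest share of the reads from 1 cell was 29.3%, in cell 2. The median over the 16 cells was 2.53 CPM, below the AGM median of 12.1 CPM. The share of cells with a read was also no higher, at 50% against 52.1% in AGM, so the higher pooled level came from the cells with reads. In E14.5 liver 3 of 16 cells had a read, at 1.596, 2.13 and 18.3 CPM, for a pooled 1.02 CPM (0.631 to 1.56). All but 1 of the 8 E12.5 cells lay above the highest E14.5 cell, and 8 cells at E12.5 had no read. Shares of cells with a read were 50% (exact Clopper-Pearson 95% interval 24.7 to 75.3) at E12.5 and 18.75% (4.05 to 45.6) at E14.5, intervals that overlap. Ecm1 lies on chromosome 3 (95734147 to 95739569, minus strand), where the microRNA gene Mir7014 overlaps 63 bases of its exons.

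Plaur encodes the urokinase receptor, the surface protein that focuses plasminogen activation on the cell, and per length of exon it was the highest of the 10 genes in AGM, yolk sac and E14.5 liver. In AGM 47 of 48 cells had a read (lowest 0, median 321, highest 2463 CPM), and in yolk sac 15 of 16 had one (median 336, highest 1263 CPM). The yolk sac median was thus within the AGM range and slightly above its median, although the pooled level of 355 CPM (347 to 363) was 1.49-fold lower than the 529 CPM (523 to 534) of AGM (1.45 to 1.53). In liver Plaur was either at over 100 CPM or close to 0. At E12.5 it was at 117, 154.9, 167.2, 188.9 and 249.7 CPM in 5 cells, at 1.13 and 3.996 CPM in 2 and at 0 in the others. At E14.5 it was at 169.4, 489 and 594 CPM in 3 cells, at 0.605 CPM in 1 and at 0 in the others. Pooled levels were 74.2 CPM (70.3 to 78.1) at E12.5, 7.13-fold below AGM (6.76 to 7.52), and 65.6 CPM (62.2 to 69.2) at E14.5, 1.13-fold below E12.5 (1.05 to 1.22). Cell 1 gave 52.0% of the E14.5 reads, and without it the level was 33.9 CPM. In the AGM cells that stood apart Plaur was below the group's median, at 116 CPM in cell 3 and 44.2 CPM in cell 36. Plaur lies on chromosome 7 (24462484 to 24475968, plus strand) and overlaps no other annotated gene.

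Ecm1 and Plaur were the members with a match to the AP-1 motif TGACTCA (either strand) in the 250 bases before the start given by RefSeq, a motif held by 4.46% of 32851 promoter windows of that length. Of the 10 genes 8 had an entry in the RefSeq promoter table (GRCm38.p6), while Mmp2 and Fn1 had none. Both windows are shown with capitals marking matches to the motifs searched: TGACTCA, the GC box GGGCGG (32.7% of windows), the TATA box TATAAA (12.4%), the CCAAT box CCAAT (33.8%), AGATAA (9.99%), CCGGAA (12.0%) and CACGTG (6.02%). The Plaur window is chr7:24462233-24462482 on the plus strand, with 3 overlapping or adjoining GC boxes and the AP-1 match 69 to 63 bases before the start. The Ecm1 window is chr3:95739570-95739819 on the minus strand, with the reversed AP-1 match 64 to 58 bases, a GC box 42 to 37 bases and a TATA box 27 to 22 bases before the start. A match describes letters and shows no binding.
Plaur: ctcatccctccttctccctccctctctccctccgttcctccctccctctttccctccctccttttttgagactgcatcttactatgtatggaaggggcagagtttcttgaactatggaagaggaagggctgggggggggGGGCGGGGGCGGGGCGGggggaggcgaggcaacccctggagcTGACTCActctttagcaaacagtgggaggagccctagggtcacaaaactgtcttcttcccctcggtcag
Ecm1: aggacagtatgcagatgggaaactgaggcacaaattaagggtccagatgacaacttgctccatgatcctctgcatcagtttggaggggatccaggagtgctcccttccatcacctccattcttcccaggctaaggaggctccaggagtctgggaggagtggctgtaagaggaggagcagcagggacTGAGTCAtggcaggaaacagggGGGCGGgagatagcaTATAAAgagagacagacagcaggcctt

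Mmp2 encodes gelatinase A, a metalloproteinase that cuts type IV collagen, and it was read in E11.5 cells only among these libraries. In AGM 29 of 48 cells had a read (lowest 0, median 16.8, highest 898 CPM), and in yolk sac 7 of 16 had one (median 0, highest 429 CPM). Pooled levels were 114 CPM (111 to 116) and 62.2 CPM (59.0 to 65.6), a 1.83-fold difference (1.72 to 1.94). Yolk sac cell 15 gave 43.9% of that group's reads, and without it the level was 37.3 CPM. In liver 0 of 16 cells had a read at E12.5 and 0 of 16 at E14.5, which allows a share of up to 18.75% of cells in each at a floor of 3 cells in 16 (exact Clopper-Pearson upper limit 20.6%). E12.5 Mmp2 was at least 722-fold lower than AGM, with the liver set to 3 reads in all. No fold can be given between the liver ages. Mmp2 (chromosome 8, 92827291 to 92853420, plus strand) overlaps no other annotated gene.

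The 3 TIMP genes, which encode secreted inhibitors of metalloproteinases, did not share 1 pattern. Timp1 was rare in all groups, with reads in 8 of 48 cells from AGM and 2 of 16 from yolk sac, and in 1 of 16 liver cells at E12.5 and 0 of 16 at E14.5. Its pooled level was 5.59 CPM (5.01 to 6.22) in AGM, where the highest cell had 90.0 CPM, and 1.43 CPM (0.981 to 2.03) in yolk sac. The 2 reads at E12.5, both in cell 16, gave a level 53.3-fold lower than AGM, with a counting interval of 14.6 to 442. They are fewer than the floor of 3 reads set for groups with 0 reads.

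Timp3, the inhibitor that binds to the matrix, followed Mmp2 in being nearly absent from liver reads. In AGM 26 of 48 cells had a read (lowest 0, median 7.08, highest 381 CPM), for a pooled 48.5 CPM (46.8 to 50.3). In yolk sac 5 of 16 had one (median 0, highest 160.2 CPM), for a pooled 16.6 CPM (14.9 to 18.4), and cell 2 gave 54.9% of the reads, leaving 7.94 CPM. E12.5 liver had no read and E14.5 liver had 1, so that E12.5 Timp3 was at least 308-fold lower than AGM.

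Timp2, the inhibitor that also takes part in activation of pro-Mmp2 at the membrane, had a liver level that rested on few cells. In AGM 26 of 48 cells had a read (lowest 0, median 19.6, highest 160.7 CPM), for a pooled 41.3 CPM (39.7 to 42.996). In yolk sac 8 of 16 had one (median 0.265, highest 80.3 CPM), for a pooled 15.6 CPM (14.05 to 17.4), 2.64-fold lower than AGM (2.36 to 2.96). In E14.5 liver 4 of 16 cells had a read, at 65.6, 72.0, 85.4 and 119.7 CPM, for a pooled 23.5 CPM (21.5 to 25.7). The pooled 31.7 CPM (29.2 to 34.3) of E12.5 liver came almost whole from cell 8, which had 2234 CPM and gave 92.5% of the reads. That is the cell with 1011 genes and the highest macrophage, megakaryocyte and erythroid marker sums of its group. The part of these in its Timp2 was not tested. Without cell 8 E12.5 Timp2 was 2.39 CPM and the log2 ratio to AGM moved from -0.37 to -3.64. Timp1 (chromosome X, 20870166 to 20874735) and Timp3 (chromosome 10, 86300372 to 86349506) lie inside the neuronal genes Syn1 and Syn3 on the other strand, and Timp2 (chromosome 11, 118301069 to 118355740) overlaps Cep295nl on the same strand. Timp1 and Timp2 share 0 exon bases with these genes in the annotation. Timp3 shares 1733 with Syn3, 21.3% of its exon length, and reads from those bases cannot be assigned without the strand setting.

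**Figure D2:**
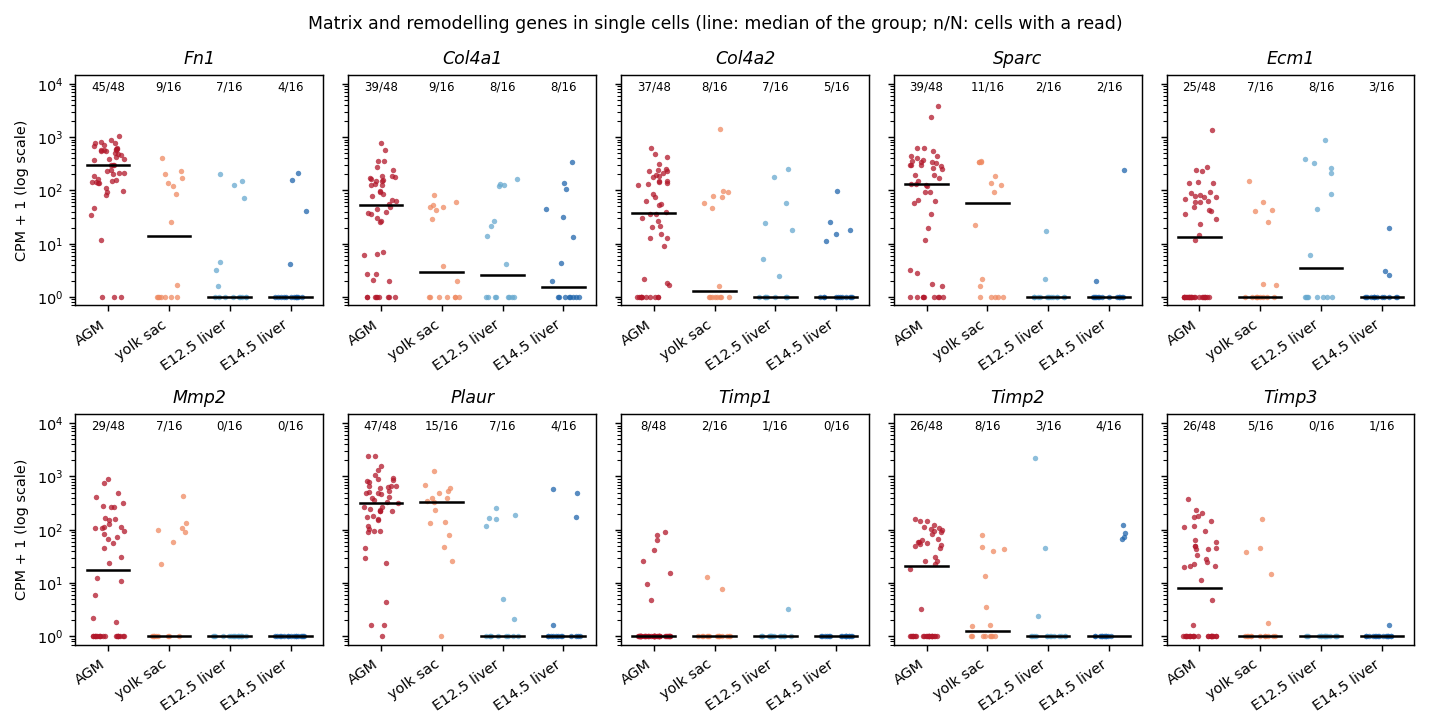
CPM + 1 of each gene in each cell on a log axis, by group, with jittered points, 1 per cell; the black line is the group median and the numbers on top are cells with a read of all cells. Mmp2 has no liver cell above the base line, Ecm1 has 8 cells with a read at E12.5 and 3 at E14.5, and single high points carry Sparc at E14.5, Timp2 at E12.5 and Col4a2 in yolk sac.

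Scaled by exon length, the order of the members differed between the sites. In AGM the level per kilobase of exon was 201.98 CPM for Plaur, 75.3 for Sparc, 33.7 for Mmp2, 30.8 for Fn1, 28.1 for Ecm1, 15.3 for Col4a2, 13.5 for Col4a1, 10.6 for Timp2, 6.30 for Timp1 and 5.96 for Timp3. The last 2 had overlapping counting intervals (5.64 to 7.005 and 5.75 to 6.18), while no other neighbours in this order overlapped. Without AGM cells 3 and 36 the levels per kilobase were 207.96 for Plaur, 48.1 for Sparc, 30.8 for Fn1, 29.2 for Mmp2, 18.005 for Ecm1, 12.9 for Col4a2, 10.7 for Col4a1, 10.4 for Timp2, 5.57 for Timp3 and 4.85 for Timp1. The order of Fn1 and Mmp2 thus turned, as did that of Timp1 and Timp3, and Col4a1 (10.4 to 10.99) then overlapped Timp2 (10.01 to 10.9). In pooled CPM the levels without those cells were 182.4 for Sparc, 98.3 for Mmp2, 85.2 for Col4a2, 79.7 for Col4a1 and 45.4 for Ecm1, while Fn1, Plaur, Timp2 and Timp3 moved by less than 1.1-fold and Timp1 fell to 4.31. Yolk sac kept Plaur (136), Sparc (32.4) and Mmp2 (18.5) in front, followed by Col4a2 (14.6). Cell 15 gave 43.9% of the yolk sac Mmp2 reads and cell 8 gave 65.8% of those of Col4a2, so the order of these 2 rests on single cells. In E12.5 liver Ecm1 led with 53.1 CPM per kilobase, ahead of Plaur with 28.3 and Timp2 with 8.14, the last resting on cell 8. In E14.5 liver Plaur led with 25.1, and the next, Timp2, had 6.03. Counting intervals take no account of the spread between cells, which was far wider.

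Between yolk sac and AGM, 7 of the 10 genes were at least 2-fold lower in yolk sac (log2 ratio of pooled CPM + 1 of -1 or less) and 0 were at least 2-fold higher. Among all 15239 genes with at least 30 reads, 21% were that much lower and 8.61% that much higher. The members' log2 ratios ran from -1.89 (Col4a1) to -0.06 (Col4a2) with a median of -1.39, and the median of all genes was -0.20. The 3 genes short of 2-fold were Col4a2, Mmp2 (-0.86) and Plaur (-0.57). Without AGM cell 3 the count was 5, and without AGM cells 3 and 36 it was also 5, with Sparc and Ecm1 (-0.86) no longer past 2-fold. Since the genes were chosen with these levels known, nothing further is read from the count.

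The lower level in yolk sac differed between cells with and without transcripts of the gate. In 8 of the 16 yolk sac cells there was a read of Cdh5, which encodes CD144, or of Procr, which encodes EPCR. Among them, cells 7 and 9 had only 1 such read each. With only those 8 cells, 4 members were at least 2-fold lower than in AGM in place of 7: Sparc (-1.18), Fn1 (-1.20), Col4a1 (-1.26) and Col4a2 (-1.10), the last not among the 7. Ecm1 (-0.96), Timp3 (-0.94), Timp1 (-0.90) and Timp2 (-0.57) were then short of 2-fold. Timp2 was 27.6 CPM in the 8 cells with such reads (7 cells with a Timp2 read) and 0.103 CPM in the other 8 (1 cell). Col4a1 was 41.5 CPM (7 cells) and 6.72 CPM (2 cells), and Fn1 was 155.97 CPM (6 cells) and 36.5 CPM (3 cells). Sparc was 126 CPM (6 cells) and 119 CPM (5 cells), and Plaur 392 CPM (8 cells) and 307 CPM (7 cells). Cell 8, without gate transcripts, had the highest level of both in yolk sac, 355 and 1263 CPM. Col4a2 had the reverse order, 46.5 against 161.7 CPM, through cell 8. Yolk sac cells 1, 2 and 3, with the most genes detected, are among the 8 with gate transcripts, and the part of gene detection in these differences was not tested.

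Between E12.5 liver and AGM, 8 of the 10 genes were at least 2-fold lower in liver and 0 were at least 2-fold higher, where 26% of all genes were that much lower and 15.6% that much higher. Both comparisons use the same AGM cells, so they are not independent. Log2 ratios were -7.05 for Sparc, -6.84 for Mmp2, -5.63 for Timp3, -2.97 for Fn1, -2.82 for Plaur, -2.58 for Timp1, -1.40 for Col4a1 and -1.12 for Col4a2. The 2 others were Timp2 (-0.37) and Ecm1 (0.91). The median was -2.70, against -0.20 over all genes. Without AGM cells 3 and 36, 7 were at least 2-fold lower and 1, Ecm1 with 1.54, was at least 2-fold higher, and Col4a2 was at -0.88. Mesenchymal markers, which other cells of the AGM would carry, had a summed median of 25.4 CPM in AGM cells, with reads in 31 of 48 cells, of 0.321 CPM in yolk sac and of 0 in both liver groups. The endothelial sum had a median of 526 CPM for yolk sac cells, 902 for the liver at E12.5 and 478 at E14.5, against the 1248 of AGM. The part of either sum in the ratios was not tested.

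Between E14.5 and E12.5 liver, the genes showed no common direction. At least 2-fold lower were 2 of 10, Ecm1 (-6.06) and Col4a2 (-2.20), where 18.2% of all genes were that much lower, and at least 2-fold higher was 1, Sparc (3.11), where 18.7% were. The median was -0.16, against 0 over all genes. The Sparc value turned to -1.03 without E14.5 liver cell 15. Timp2 was at -0.42 and moved to 2.85 without E12.5 liver cell 8, and Plaur was at -0.17 and moved to -1.11 without E14.5 liver cell 1. The E12.5 cells also serve in the comparison with AGM. Age and gate both differ between the liver groups.

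**Figure D3:**
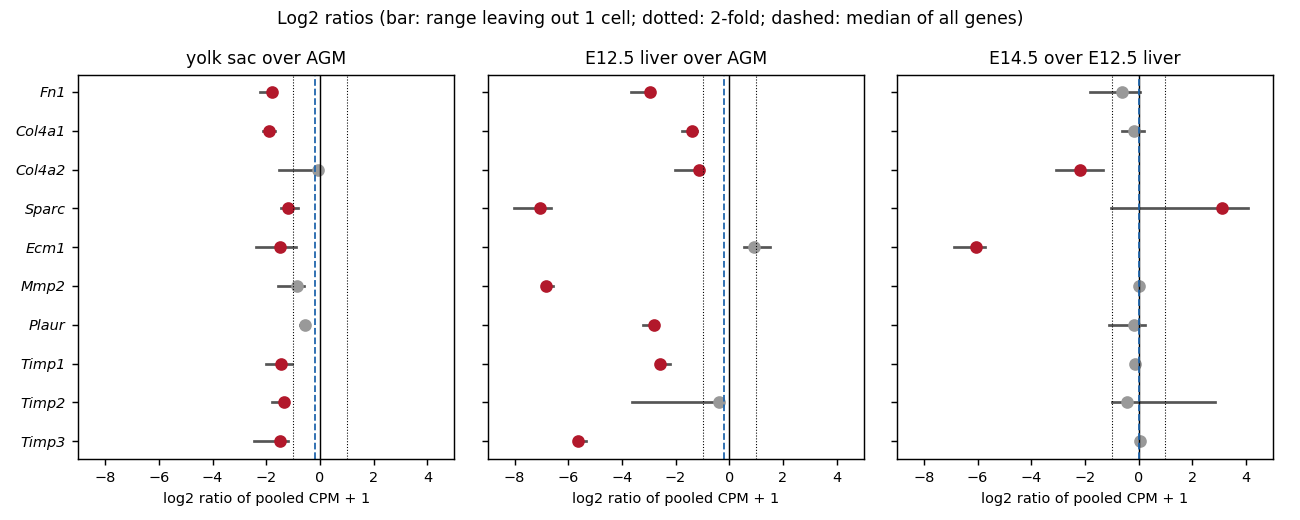
Log2 ratio of pooled CPM + 1 of each gene in 3 comparisons (points, red where at least 2-fold), with the range over leaving out single cells (grey bars), the 2-fold lines (dotted) and the median of all genes (dashed blue). Every point lies left of 0 in the yolk sac comparison, where the Col4a2 bar crosses 0, and Ecm1 alone lies right of 0 in the E12.5 comparison. Between the liver ages the bars of Sparc, Fn1, Col4a1, Plaur and Timp2 cross 0.

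Among the 48 AGM cells the members did not vary as 1 block. The highest Spearman's rho of CPM among the 45 pairs were 0.53 for Col4a2 with Ecm1, 0.47 for Sparc with Col4a1 and 0.40 for Sparc with Col4a2, and the lowest was -0.43 for Sparc with Plaur. Without AGM cells 3 and 36 these were 0.47, 0.39, 0.32 and -0.38. Mmp2 with its inhibitors had 0.24 for Timp1, -0.08 for Timp2 and 0.26 for Timp3. These values are descriptions over cells that share differences in gene detection. With the number of genes detected, rho was 0.57 for Sparc, 0.47 for Col4a2, 0.39 for Ecm1, 0.31 for Col4a1 and -0.10 for Plaur.

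The members differed in how far they went with the endothelial markers of the AGM cells. With the summed endothelial markers, rho was 0.47 for Col4a1, 0.46 for Timp3, 0.43 for Mmp2, 0.32 for Sparc and 0.24 for Fn1. It was 0.21 for Col4a2, 0.16 for Timp2, 0.14 for Ecm1, 0.04 for Plaur and -0.08 for Timp1. Without AGM cells 3 and 36 the first 5 were 0.40, 0.39, 0.38, 0.23 and 0.26, and the others 0.10, 0.13, 0.03, 0.14 and -0.29. With the summed haematopoietic markers, rho was -0.42 for Sparc and 0.30 for Plaur (-0.34 and 0.23 without the 2 cells). With the summed mesenchymal markers, the highest was Timp3 with 0.48.

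**Figure D4:**
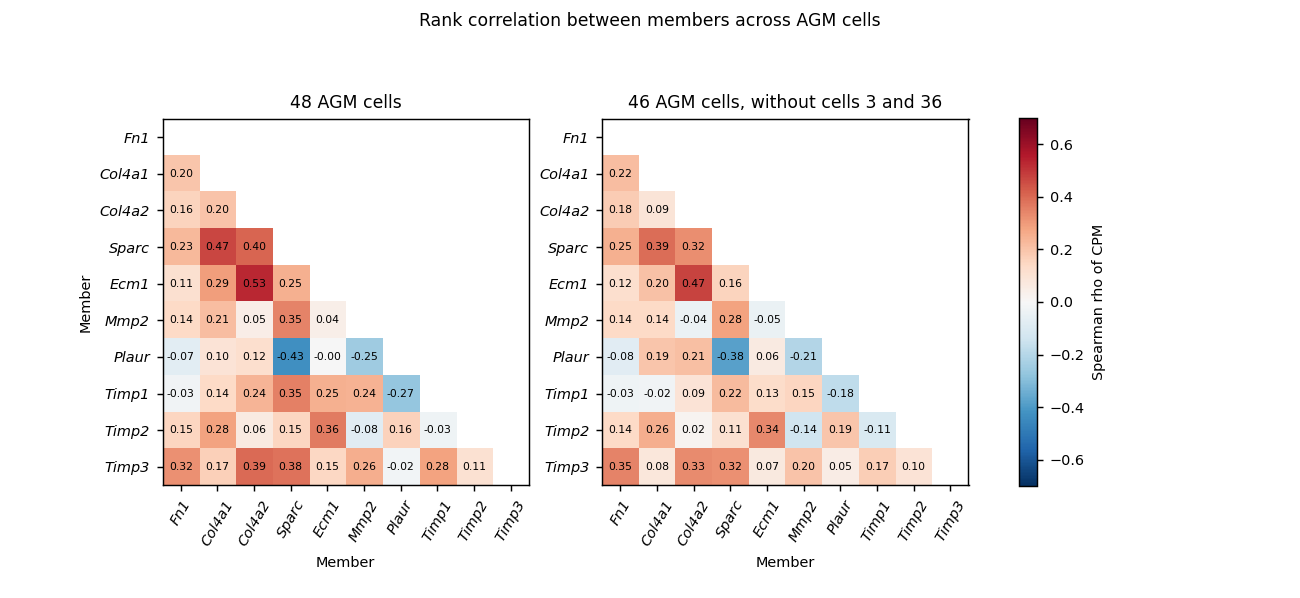
Spearman's rho of CPM for each pair of the 10 genes over 48 AGM cells (left) and over 46 without cells 3 and 36 (right), with red above 0 and blue below. Col4a2 with Ecm1 is the highest at 0.53 and 0.47, and Sparc with Plaur the lowest at -0.43 and -0.38.

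The genes whose AGM pattern was most like a member were sought among 7865 genes with a read in at least 25% of AGM cells, so each value is the top of many and the places moved with the method. Plaur was nearest to Nop53 (rho 0.73), a ribosome assembly factor, and to the nuclear receptor genes Nr4a2 (0.63) and Nr4a3 (0.59). Mmp2 was nearest to Mmrn2 (0.62), which encodes an endothelial matrix protein, then Map4k2 (0.59) and Ramp2 (0.57), an endothelial receptor partner and 1 of the markers in the endothelial sum. Timp3 had Fads2 (0.59), Nfib (0.58) and the Notch ligand gene Dll4 (0.58). Sparc had the imprinted genes Mest (0.63) and Meg3 (0.61), and Mphosph8 (0.61). Fn1 had Prpf4b (0.57), Pdlim1 (0.53) and Vwf (0.53), which encodes von Willebrand factor. Col4a1 had Rel (0.57), Rbms2 (0.55) and Msrb3 (0.55), and Col4a2 had Mto1 (0.65), Apba3 (0.62) and Ube2h (0.61), with no gene in common. Ecm1 had Gpatch11 (0.65), Anxa3 (0.62) and Exoc3l (0.59), and Timp2 had Gipc1 (0.57), Rfc5 (0.54) and Map3k12 (0.53). Timp1, with reads in 8 of 48 cells, was left out by the rule.

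Other matrix genes were taken from lists of 7 kinds, and the counts of those lower in E12.5 liver than in AGM changed with the CPM added before the ratio. The lists were chosen with earlier results of these data known, so their counts are a description. Genes with few reads could meet the minimum of 30 reads through AGM alone, which gave 48 of the 96 cells. The same holds for the genes of the background. With 1 CPM added 26% of all genes were at least 2-fold lower, and with 10 CPM added 7.41% were. With 1 CPM added, of 13 basement membrane genes with at least 30 reads, 9 were at least 2-fold lower in E12.5 liver than in AGM and 0 higher (median log2 ratio -1.98, and -4.00 with genes at 0 reads set to a floor of 3 reads). Lamb1, a laminin chain, was 22.8 CPM in AGM (18 of 48 cells) and had 0 reads in E12.5 liver. Hspg2, which encodes perlecan, was 10.8 CPM in AGM (18 of 48 cells) and had 0 reads in E12.5 liver. Of 16 fibrillar and interstitial genes 15 were lower and 1 higher (median -2.63, floor -4.70). Fbn2, fibrillin 2, went from 17.6 CPM (26 of 48 AGM cells) to 0 reads. Of 19 matricellular and vascular genes 15 were lower and 0 higher (median -2.13, floor -3.94). In AGM Cyr61 was at 99.6 CPM (15 of 48 cells) and Efemp2 at 40.4 CPM (17 of 48 cells), both with 0 reads in E12.5 liver. AGM cell 8 gave 38.4% of the AGM Cyr61 reads, and without it the level was 63.2 CPM. For each gene with 0 reads, 0 of 16 liver cells has an exact Clopper-Pearson upper limit of 20.6%. All genes had a median of -0.20 in this comparison. With 10 CPM added, 5 of the basement membrane genes, 5 of the fibrillar and 7 of the matricellular were at least 2-fold lower.

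The enzymes and receptors around the matrix gave counts of the same kind. With 1 CPM added, of 20 proteases 13 were at least 2-fold lower and 1 higher (median -1.21, floor -2.98): Mmp14, the membrane-bound activator of Mmp2, was 39.6 CPM in 26 of 48 AGM cells and 2.62 CPM in 1 of 16 E12.5 cells. Of 5 protease inhibitors 3 were lower and 0 higher (median -1.94, floor -3.35). Cst3, cystatin C, was read in all cells of AGM and of E12.5 liver, at 686 and 650.0 CPM. Of 14 genes of collagen folding and crosslinking 9 were lower and 0 higher (median -1.64, floor -2.38), and Serpinh1, the collagen chaperone, was 107 CPM in AGM and 3.88 CPM in E12.5 liver. Of 17 matrix receptors 11 were lower and 0 higher (median -1.52, floor -2.63), and Itgb3, the beta3 integrin, was 48.8 and 2.47 CPM. Between the 2-fold lines lay 6 proteases, 2 inhibitors, 5 folding genes and 6 receptors. With 10 CPM added, 3 proteases, 1 inhibitor, 5 folding genes and 5 receptors were at least 2-fold lower.

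Between yolk sac and AGM, where 21% of all genes were at least 2-fold lower, basement membrane genes had the highest share of the 7 lists. At least 2-fold lower in yolk sac were 10 of 13 basement membrane genes, 9 of 16 fibrillar, 10 of 19 matricellular, 8 of 20 proteases, 3 of 5 inhibitors, 5 of 14 folding genes and 9 of 17 receptors, and 2, 0, 2, 2, 0, 0 and 0 were higher in that order. With 10 CPM added the counts lower were 5, 2, 4, 0, 1, 1 and 1, where 3.12% of all genes were lower. Without AGM cells 3 and 36 the matricellular count was 6. Vwf was 39.3 CPM in yolk sac and 233.1 CPM in AGM, Lama5 8.07 and 37.5 CPM, and Cd44, the hyaluronan receptor, 117 and 67.2 CPM. Between E14.5 and E12.5 liver, where 18.2% of all genes were lower and 18.7% higher, the lists had 3 of 13, 3 of 16, 1 of 19, 3 of 20, 0 of 5, 3 of 14 and 3 of 17 genes lower in the same order, and 2, 1, 3, 1, 1, 1 and 5 higher. With 10 CPM added the lists had 0 to 2 genes lower and 0 higher, where 7.45% of all genes were lower and 8.12% higher. Col18a1, the basement membrane collagen that yields endostatin, was read in 10 of 16 cells at the earlier age and in 7 of 16 at the later, at 117 and 51.4 CPM. Of the collagen folding genes, Bmp1, a procollagen protease, was 25.7 CPM at E12.5, in 5 of 16 cells, and had 0 reads at E14.5.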

How the data were processed

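The authors deposited whole-number read counts per gene for the 96 cells in 1 table, and per the labels each cell was sorted to its own well and amplified with a SMART-Seq kit. The submitters' processing notes name FastQC, Trimmomatic 0.36, STAR, HTSeq and the build mm10, with no role, order or setting. The annotation used for counting and its strand setting are not given in the sources used here.

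Rows that shared a symbol (113 of 19949) were summed to 19836 genes. A minimum of 1000 detected genes removed 0 cells, and 0 pairs of columns were identical. No doublet caller was run, since 1 cell was sorted to a well. Group levels are CPM of the summed reads, and ratios are log2 of pooled CPM + 1, which understates the change of low genes. A gene counted as higher or lower at 2-fold, and the background was the 15239 genes with at least 30 reads. Groups with 0 reads were set to a floor of 3 reads over the group for a fold. Intervals are exact at 95%. Exon lengths and overlaps came from GENCODE M21 and promoter sequences from RefSeq (GRCm38.p6). Python 3.11.15, numpy 2.4.6, pandas 2.3.3, scipy 1.17.1 and matplotlib 3.10.9 were used. The ratio calculation was run on simulated counts with known changes. Those counts had counting error only and no spread between cells, so they do not cover groups where 1 cell holds most reads.

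With no animal or litter named, no test was made between groups. The members, the lists and the tests were chosen with earlier results of these data known. Named besides the members were, for each matrix list and comparison, genes among the 4 with the largest ratio that the higher group showed in at least 25% of its cells, with no more than 50% of its reads from 1 cell. Also named were the 3 genes with the highest rho to each member across AGM cells, leaving out predicted genes, pseudogenes, mitochondrial, ribosomal protein and sex-linked genes. Ramp2, Vwf and Itgb3 belong to marker lists too. The mesenchymal markers Col1a1, Col1a2, Col3a1, Dcn, Lum and Postn are also in the matrix lists. Of the matrix lists, Lama2, Col4a4, Col4a6, Col5a3, Col6a1, Col6a2, Mmp8, Plg, A2m, Lox and Gp6 were not analysed here, and Ccn1 and Ccn2 stand in the table as Cyr61 and Ctgf. The megakaryocyte, hepatocyte and erythroid marker sums had group medians of 248 to 435, 0 to 44.1 and 27.5 to 587 CPM. Alternatives were averaging CPM over cells, thinning to 690000 reads, median-of-ratios scaling, 10 CPM added, the floor in place of added CPM, at least 2000 genes per cell, no cell filter, no minimum on reads, and leaving out single cells, the deepest cells, cells without gate transcripts, E12.5 liver cell 8 or 4 globin-rich E14.5 cells. Leaving out AGM cells 3 and 36, or cells with over 9000 genes, and all alternatives for the matrix lists, were added after seeing the data.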

Additional observations from a re-analysis of the deposited data

How the results depend on the processing

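No paired analysis was possible because the cell numbers of the labels name no animal or litter and the results come from no test. The count of members past 2-fold between yolk sac and AGM, 7, was 4 with the yolk sac cells that had Cdh5 or Procr reads only, and 5 to 8 over leaving out single cells (5 without AGM cell 3, 8 without yolk sac cell 8). Between E12.5 liver and AGM the count of 8 was 6 to 10 over all alternatives, 6 with 10 CPM added and 10 after thinning, and 7 to 9 over leaving out single cells. Between the liver ages the count of 3 was 3 or 4. The log2 ratio of Sparc between the liver ages, 3.11, ran from -1.03 without E14.5 liver cell 15 to 4.06 without E12.5 liver cell 5. Timp2 in E12.5 liver over AGM, -0.37, was 1.84 when CPM was averaged over cells and -3.64 without E12.5 liver cell 8. The median number of members per cell went from 7 to 6 in AGM, 5 to 4.5 in yolk sac and 2 to 2.5 in E12.5 liver after thinning. Of the 27 genes named as most like a member, 17 stayed among the top 3 after thinning, 10 with Pearson's r of log2(CPM + 1) and 16 without AGM cells 3 and 36. The median log2 ratio of the members ran from -2.03 (without cells of over 9000 genes) to -0.95 (gate transcripts only) for yolk sac over AGM, and from -3.16 (thinned) to -1.88 (10 CPM added) for E12.5 liver over AGM. With no minimum on reads, the shares of all genes at least 2-fold lower were 16.1%, 20% and 14.2% in the order of the comparisons. The cause of these moves was not tested, and differences between animals are not covered.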
